A study of Mus musculus with 23 samples.

Results

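The transcripts of the mitochondrial protein import machinery were followed from the fully grown mouse oocyte to the 2-cell embryo as 36 genes of the 56196 in each count table. The set was taken by gene symbol, and the rule uses no measured value. It holds every symbol that starts with Tomm or Timm and goes on with a digit, together with Timmdc1, Samm50, Mtx1, Mtx2, Pam16, Dnajc19, Grpel1, Grpel2, Hspa9 and Hspd1. Pseudogene entries with the suffix -ps, 8 in number, were left out. Of the 36 genes, 35 are annotated as protein-coding, and the remaining gene is Tomm6os, a transcript antisense to Tomm6. By role, 9 belong to the TOM complex or are its paralogs, 3 to the SAM complex, 6 are small TIM chaperones, 3 belong to the TIM22 translocase, 5 to the TIM23 translocase and 6 to the PAM import motor. The matrix chaperonin Hspd1, the cytosolic cochaperone Tomm34 and the complex I assembly factor Timmdc1 make up the rest. All 36 passed the filter on low counts in both tables, although Tomm5 and Tomm40l had no count in any WT 1-cell library and passed through other groups.

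Nearly all mitochondrial proteins are made in the cytosol and enter through the TOM complex of the outer membrane, in which Tomm40 forms the pore, Tomm20, Tomm22 and Tomm70a receive precursors, and Tomm5, Tomm6 and Tomm7 are small subunits. Matrix proteins then pass the TIM23 channel and are pulled in by the PAM motor around the chaperone Hspa9, while small TIM chaperones carry membrane proteins across the intermembrane space to the TIM22 or SAM complex. A fully grown oocyte is transcriptionally silent and packed with mitochondria. In the mouse its stored maternal mRNA is largely degraded before and after fertilisation, and the embryonic genome takes over at the 2-cell stage.

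Samples were labelled WT or Eif4enif1+/- (het). Eif4enif1 encodes 4E-T, a partner of the cap-binding protein eIF4E that acts in mRNA storage. Germinal vesicle (GV) oocytes, arrested in prophase of meiosis, received no treatment. T&T-seq recorded their total mRNA (transcriptome) and ribosome-bound mRNA captured with RiboLace (translatome) from the same specimen, with 2 libraries per genotype and fraction. Each embryo group had 3 libraries: untreated 1-cell embryos of both genotypes, 2-cell embryos of both genotypes cultured in vitro for 24 h, and het embryos that remained at the 1-cell stage over that culture (arrested). Not given in the sources used here: the strain, age, type of allele, the number of oocytes or embryos per library, and whether an embryo's label is its own genotype or its mother's.

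Total counts ran from 3.62 to 50.49 M in GV libraries and from 5.6 to 40.38 M in embryo libraries. Eif4enif1 was checked first. In the GV transcriptome it was at 217 and 222 CPM (normalised counts per M counts of a library) in WT and 87.3 and 96.1 CPM in het, and in the translatome at 312 and 270 against 150 and 97.1 CPM. The log2 fold change was -1.26 in the transcriptome (adjusted p = 0.0283, edgeR quasi-likelihood test) and -1.24 in the translatome (adjusted p = 0.0224). In 1-cell embryos the WT libraries lay between 134 and 178 CPM and the het libraries between 69.2 and 72.1 CPM, without a call (adjusted p = 1.0, edgeR). At the 2-cell stage WT was at 74.4, 55.3 and 76.3 CPM and het at 54.9, 38.2 and 43.0 CPM, a log2 change of -0.60, also without a call. Arrested het libraries were at 109.6, 28.5 and 62.7 CPM, so library 1 lay above every het 1-cell and every 2-cell library. All 12 oocyte markers were detected in every GV library. Het 1-cell libraries 1 and 3 stood apart from the other 1-cell libraries: their 100 most abundant genes held 6.34% and 5.53% of counts, against 32.06 to 38.05% elsewhere, and their summed oocyte markers reached 1785 and 1434 CPM, against 16510 to 21360 CPM. For het against WT at the 1-cell stage, het 2-cell against 1-cell and arrested against fresh 1-cell embryos, called members are also given without them. Other results that rest on them are given with them only. Nothing states that replicates came from separate animals, so a p-value here refers to the spread between libraries, which may be technical. In bulk libraries fewer cells and less RNA per cell cannot be told apart.

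In the plot of all 36 transcripts by library, most members were present in oocytes, lower in 1-cell embryos and higher again at the 2-cell stage. Timm23 and Timm8b were abundant in the WT libraries of all stages, while Tomm5 and Timm22 were low in WT oocytes and near 0 in WT 1-cell embryos. The summed share of the 36 genes was 1503 to 1731 counts per M counts in WT 1-cell libraries and 4776 to 5688 in WT 2-cell libraries. It was 2429, 4278 and 5780 in the het 2-cell libraries and 1054, 1780 and 1460 in the arrested libraries.

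**Figure D1:**
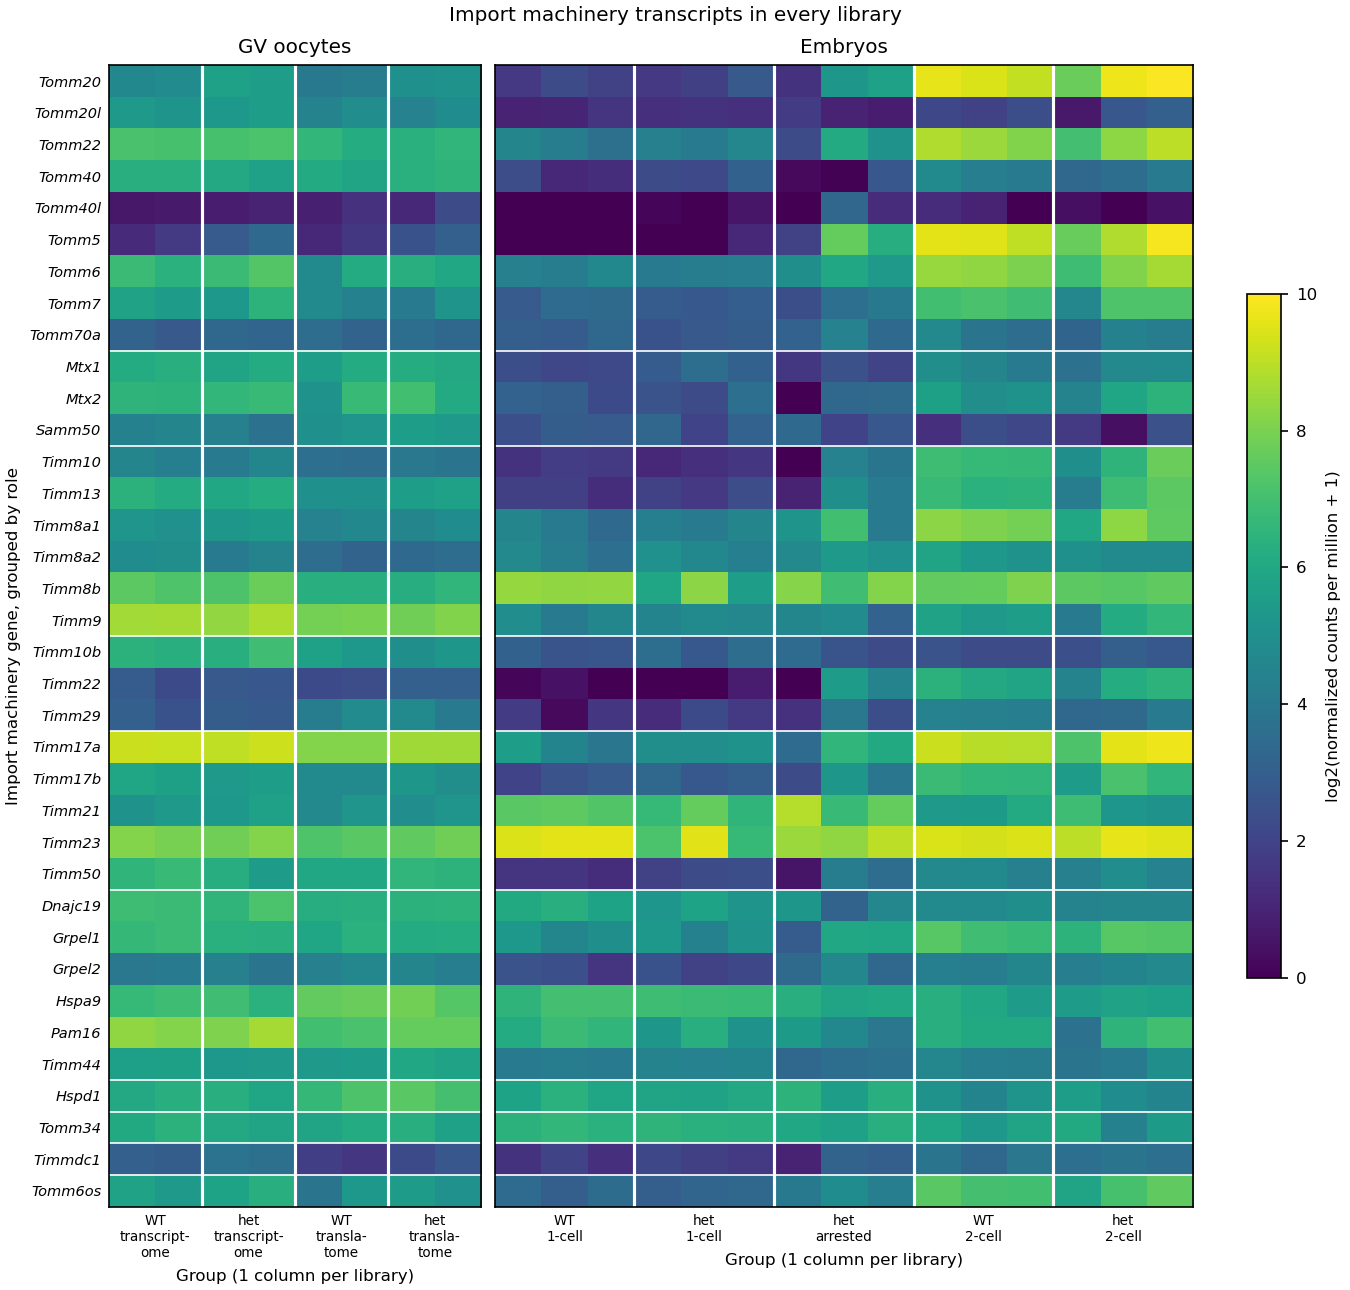
Level of each import machinery transcript in every library, as log2(normalised CPM + 1); rows are genes grouped by role, with white lines between roles, and columns are libraries grouped by stage, genotype and fraction. Tomm20 and Tomm5 are dark in all 1-cell columns and bright in all 2-cell columns, while Timm23 is bright in WT 1-cell and WT 2-cell columns. The GV and embryo tables were normalised separately.

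Total mRNA of WT GV oocytes held the small TIM chaperone Timm8b at the highest level per length among the 36, at 314.7 ± 36.9 CPM per kb of annotated exon (SD, n = 2). The channel protein Timm23 followed at 149.2 ± 14.8 and the motor regulator Pam16 at 124.5 ± 11.4 CPM per kb. Timm9, a small TIM chaperone, had 91.7 ± 1.37, the small TOM subunit Tomm6 86.6 ± 18.2, and the receptor Tomm22 82.7 ± 2.23 CPM per kb. The order among these 3 was within the spread of Tomm6. At the low end were the carrier channel Timm22 with 1.61, the receptor Tomm70a with 0.711 and the pore paralog Tomm40l with 0.116 CPM per kb. Exon bases of 19 of the 36 genes overlap another annotated gene, and the counting is not stated to use strand, so reads of such pairs cannot be assigned with certainty. Tomm6 shares 75.95% of its exon bases with the overlapping gene model Gm21981. In WT transcriptome library 1 they had almost the same level, at 112.5 and 112.1 CPM. Tomm6os overlaps Tomm6 on the opposite strand and shares 32.5% of its exon bases with Gm21981, and Tomm40l shares 64.3% with Nr1i3. Levels of Tomm6, Tomm6os and Tomm40l are therefore uncertain. Wherever Tomm6 and Tomm6os are both counted as called, the calls may rest in part on the same reads and are not independent. The pseudogenes left out reached at most 25.47 CPM (Dnajc19-ps) and 10.59 CPM (Hspd1-ps3), and reads of Dnajc19 and Hspd1 could be shared with them.

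In WT oocytes ribosome-bound mRNA held relatively less of 4 small TIM chaperones and of the TIM23 channel partners Timm17a and Timm17b than total mRNA. Timm29 and, with adjusted p close to the threshold, the chaperone Hspa9 were relatively higher in ribosome-bound mRNA in both genotypes. In WT oocytes 2 of 36 genes were higher in the translatome and 8 were lower at an adjusted p under 0.05, against 8.95% and 5.64% of all 22409 genes tested. The median log2 change of the 36 was -0.60, against -0.04 over all genes. In het oocytes 4 were higher and 3 were lower, against 6.19% and 1.91% of all genes, with a median of -0.43 against 0.04. Among the 6 small TIM chaperones 4 fell in WT oocytes and 1 in het oocytes, and none had a log2 change above 0 in either genotype. Only Timm8a2, Timm13 and Timm8b of these stayed called in WT under 3 other settings. The settings were scaling by relative log expression, no filter on low counts, and a fit of the WT groups alone. Timm17a and Timm17b were not called in het oocytes.

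Timm8a2, a small TIM chaperone, had 28.3 and 29.6 CPM in the WT transcriptome and 11.0 and 8.12 CPM in the WT translatome. Its log2 change was -1.59 ± 0.286 (SE, adjusted p = 0.0049, edgeR), and the fractions did not overlap. Timm13, another small TIM chaperone, stood at 84.3 and 69.2 against 31.7 and 31.5 CPM, a log2 change of -1.28 ± 0.24 (adjusted p = 0.00564, edgeR). Timm8b fell by 1.07 ± 0.264 on the log2 scale in WT (adjusted p = 0.0192) and by 1.11 ± 0.264 in het oocytes (adjusted p = 0.0236, edgeR), so this chaperone was called in both genotypes. In WT oocytes Pam16 fell by 1.19 ± 0.26 (adjusted p = 0.0112), and the TIM23 channel partners Timm17a and Timm17b fell by 1.04 ± 0.239 (adjusted p = 0.0141) and 1.06 ± 0.248 (adjusted p = 0.0154, edgeR). Timm17a had the highest CPM of the 36 in WT oocytes before correction for length, at 589.5 and 569.4 CPM in total and 284 and 280 CPM in ribosome-bound mRNA. Timmdc1 fell in both genotypes, by 1.57 ± 0.351 in WT (adjusted p = 0.0125) and by 1.41 ± 0.349 in het (adjusted p = 0.0275, edgeR), from transcriptome levels of 6.66 to 13.0 CPM. Timm10b, a TIM22 subunit, was called in het oocytes, with 79.3 and 119.8 against 30.5 and 38.3 CPM (log2 change -1.54 ± 0.278, adjusted p = 0.00609, edgeR).

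Timm29, a TIM22 subunit of mammals, had 7.27 and 4.75 CPM in the WT transcriptome and 17.2 and 27.5 CPM in the WT translatome. It rose by 1.89 ± 0.356 on the log2 scale in WT (adjusted p = 0.00578) and by 1.71 ± 0.374 in het oocytes (adjusted p = 0.0158, edgeR). Hspa9, the mitochondrial Hsp70 that drives import, had 103.9 and 118.4 CPM in the WT transcriptome and 194.5 and 209.7 CPM in the WT translatome. Its het log2 change was 0.96 ± 0.272 (adjusted p = 0.0464, edgeR), and the WT change, outside the 8 smallest p, was also called (adjusted p = 0.0476, edgeR). The WT call of Hspa9 was lost in a fit of the WT groups alone and whenever a WT library was left out. That of Timm29 stayed in each of these fits. Samm50, the outer-membrane protein that inserts beta-barrels, rose by 1.48 ± 0.281 in het oocytes (adjusted p = 0.00795), and the chaperonin Hspd1 by 1.17 ± 0.281 (adjusted p = 0.0246, edgeR). Both also lay above 0 in WT oocytes, at 0.66 and 0.80, without passing the test. With the specimen shared by both fractions as a block, Hspd1 was called in WT oocytes too (log2 change 0.78, adjusted p = 0.0357, edgeR). The block also added Tomm7 (-1.11, adjusted p = 0.00856), Timm10b (-0.85, adjusted p = 0.0266) and Timm23 (-0.72, adjusted p = 0.05, just under the threshold before rounding) to the lower genes in WT, and Tomm7 (-1.28, adjusted p = 0.00614, edgeR) in het oocytes.

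**Figure D2:**
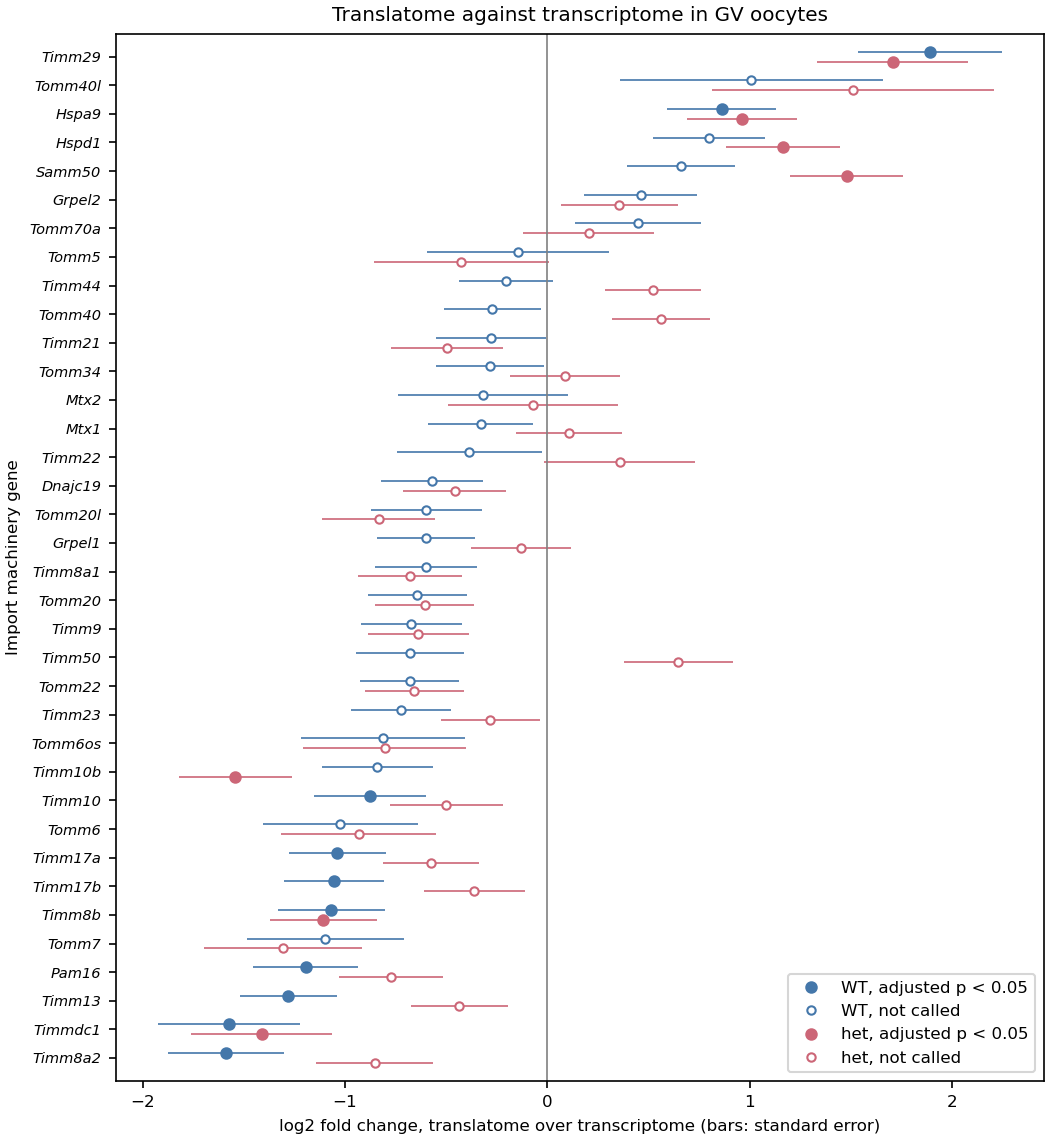
Log2 fold change of each import machinery transcript between translatome and transcriptome in WT (blue) and het (red) GV oocytes, with bars of 1 standard error; filled points have an adjusted p under 0.05. Timm29 and Hspa9 are filled to the right of 0 in both genotypes, Timm8b and Timmdc1 are filled to the left in both.

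The members differed in the length of their coding sequence, and this moved with their position in the translatome. Over the 35 coding members the log2 change between fractions correlated with log2 coding length at r = 0.64 in WT (Spearman 0.70) and 0.74 in het (Spearman 0.79). Over all 14951 coding genes tested the same correlations were 0.28 (Spearman 0.37) and 0.14 (Spearman 0.17). The points are genes of the same 4 libraries per genotype and are not independent replicates, so these values describe the libraries alone. The part of transcript length in the fraction difference was not tested.

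**Figure D3:**
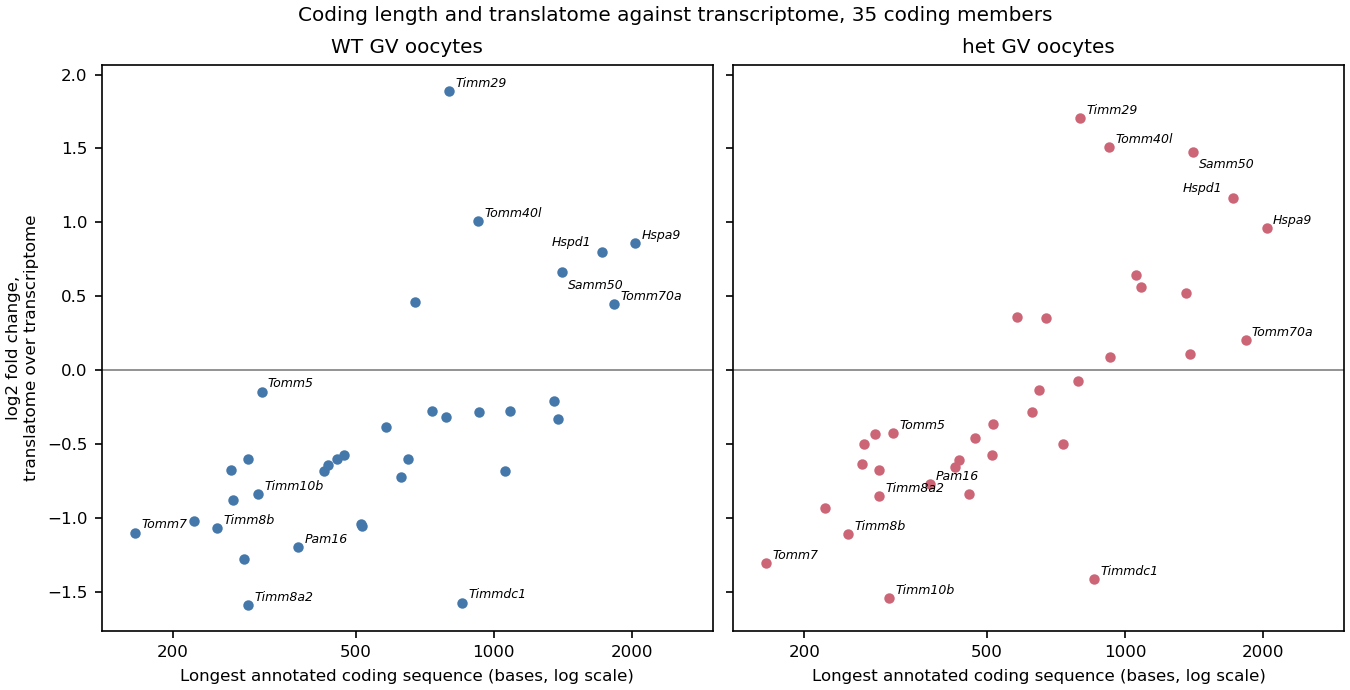
Log2 fold change between translatome and transcriptome against the longest annotated coding sequence (log axis) for the 35 coding members, in WT (left) and het (right) GV oocytes; each point is 1 gene. Short members such as Timm8b lie below 0 and the long chaperones Hspd1 and Hspa9 above 0, while Timmdc1 and Timm29 lie away from the other points of similar length.

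Without WT transcriptome library 1 the WT count fell to 3 of 36, and without WT translatome library 1 to 5. Without het translatome library 1 or het transcriptome library 2 no member was called in het oocytes, and DESeq2 called 11 of 36 there.

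In het GV oocytes the small TOM subunit Tomm5 was higher than in WT in both fractions, and the receptor Tomm20 was called higher in the translatome. Of the 36 genes 2 rose and 0 fell in the translatome, against 2.61% and 2.01% of all genes. In the transcriptome 1 rose and 0 fell, against 1.41% and 1.14%. Tomm5 had 1.33 and 2.28 CPM in the WT transcriptome and 6.25 and 9.61 CPM in the het transcriptome. In the translatome it had 1.25 and 2.11 CPM in WT and 4.79 and 7.37 CPM in het. All het libraries lay above all WT libraries in each fraction. The log2 change was 2.17 ± 0.451 in the transcriptome (adjusted p = 0.027) and 1.89 ± 0.453 in the translatome (adjusted p = 0.0356, edgeR).

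Tomm20 had 15.4 and 17.5 CPM in the WT translatome and 31.1 and 33.6 CPM in the het translatome, a log2 change of 0.97 ± 0.246 (adjusted p = 0.0424, edgeR). In the transcriptome it stood at 24.3 and 27.1 CPM in WT and 52.5 and 46.0 CPM in het, also without overlap, and the adjusted p was 0.0602. Over all 36 genes, 31 had a translatome log2 change above 0, against 52.0% of all genes tested, with a median of 0.33 against 0.04. In the transcriptome 20 lay above 0, against 47.2% of all genes, and the median was 0.04 against -0.04. The difference between the genotype effects in the 2 fractions was called for 0 of 36 genes, against 0.0134% of all genes, with 4 members at an unadjusted p under 0.05 and 0 called by DESeq2. The smallest p values belonged to the TIM23 receptor Timm50 (log2 difference 1.33 ± 0.379, adjusted p = 0.404) and to Timm13 (0.85 ± 0.335, adjusted p = 0.519, edgeR).

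These calls rested on few libraries. The translatome adjusted p of Tomm5 was 0.0769 or 0.211 without the first or the second het library, and 0.181 without WT library 1, and that of Tomm20 was over the threshold in each of the 4 fits without 1 library (0.0724 to 0.214). Without WT translatome library 2 the translatome count was 4. In the transcriptome Tomm5 had an adjusted p of 0.0507, 0.324 and 0.0777 without het library 1, het library 2 and WT library 1. Markers of granulosa and cumulus cells, which surround the oocyte, moved with the genotype: 6 of 22 tested were higher in het oocytes in each fraction and 0 were lower. Their summed level was 390 to 633 CPM in the WT and 613 to 845 CPM in the het transcriptome, and 594 to 879 CPM in the WT and 1238 to 1680 CPM in the het translatome. Of the defining markers, Foxl2 was at 0.24 to 1.67 CPM, Fshr at 1.15 to 4.23 and Amh at 0.0 to 2.88 CPM over the 8 libraries, and Ptx3 was at 0 in all 4 WT libraries. The protease inhibitor Serpine2, at 271 to 601 CPM over the 8 libraries, made up much of these sums. It was also at 831 to 892 CPM in WT 1-cell libraries, where Inha was at 0, so the sums are not specific to these cells. Cyp19a1, at 49.5 to 64.3 CPM in WT 1-cell libraries, was lower in het oocytes, at 40.7 and 47.8 against 33.5 and 26.2 CPM in the transcriptome. Other markers, picked after their values were seen, differed more between genotypes. Inha, the inhibin alpha subunit, was at 33.9 and 103 CPM in the WT and 237 and 146 CPM in the het transcriptome, and at 90.1 and 266 against 455 and 741 CPM in the translatome. Gja1, the gap junction protein connexin 43, was at 6.70 and 16.9 against 79.8 and 59.0 CPM in the transcriptome, and the activin antagonist Fst at 4.73 and 9.40 against 27.9 and 39.5 CPM in the translatome. The part of these cells in the Tomm5 and Tomm20 differences was not tested.

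Between the WT oocyte and the WT 1-cell embryo most import transcripts were much lower, and 3 were higher. The 2 tables were normalised separately, so plain CPM are set side by side here, with no test. The oocyte values come from T&T-seq and the embryo values from the other table. Stage and any difference in library method therefore cannot be told apart in these ratios. Of the 35 members with at least 1 CPM in oocytes, 28 were lower in every 1-cell library than in every oocyte library, 3 were higher and 4 overlapped. Over all 16217 genes with at least 1 CPM in oocytes, 53.6% were lower and 21.9% higher by the same rule. The median log2 ratio was -2.44 for the members and -0.83 for all these genes. Timm50 was 64.2-fold lower in 1-cell embryos, the pore protein Tomm40 39.1-fold, Timm13 38.5-fold, Timm22 34.1-fold and Tomm20l 33.3-fold.

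The higher transcripts were Timm21, Timm23 and Timm8b. Timm21, a TIM23 subunit, averaged 36.4 ± 3.75 CPM in oocytes and 144.9 ± 9.88 CPM in 1-cell embryos. Timm23 averaged 260.7 ± 34.5 and 641 ± 69.9 CPM, and Timm8b 159.5 ± 23.9 and 283.5 ± 11.3 CPM (SD, n = 2 and 3). Hspa9, Hspd1, Tomm34 and Tomm70a were the 4 that overlapped. On this plain scale Hspa9 had 108.4 ± 6.41 CPM in oocytes and 98.5 ± 23.2 CPM in 1-cell embryos.

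WT 1-cell embryos thus held a narrow set of import transcripts per length. Timm8b had 642 ± 20.9 and Timm23 419.8 ± 22.5 normalised CPM per kb, followed at a distance by Timm21 with 45.7 ± 3.5, Pam16 with 38.1 ± 8.55 and the cochaperone Tomm34 with 29.0 ± 2.73 (SD, n = 3). Tomm5 and Tomm40l had no count in any WT 1-cell library.

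By the 2-cell stage most subunits of the outer-membrane TOM complex had risen in WT embryos. Of the 36 genes 22 rose and 4 fell from the 1-cell to the 2-cell stage in WT embryos, against 28.5% and 17.9% of all 23656 genes tested. The 2-cell embryos of both genotypes had 24 h of culture, and the 1-cell embryos were untreated. Stage and culture therefore cannot be told apart in these changes. The median log2 change was 2.55, against 0.59 over all genes, or 2.72 against 0.76 with the other scaling (relative log expression, RLE). In the TOM complex 7 of 9 rose and none fell, among small TIM chaperones 4 of 6, in the TIM23 translocase 3 of 5 with 1 lower, and in the SAM complex and the TIM22 translocase 2 of 3 each. In the PAM motor 2 of 6 rose and 2 fell.

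Tomm5 went from 0 counts in the 3 WT 1-cell libraries to 776, 730 and 530 CPM in the WT 2-cell libraries. It was at least 11230-fold higher, against a floor of 3 counts over the 1-cell group (adjusted p = 0.000225, edgeR), and at 781.9 ± 150.6 CPM per kb it had the highest level per length of the 36 genes in WT 2-cell embryos. The receptor Tomm20 rose from 2.19, 3.98 and 2.83 CPM to 796, 683 and 534 CPM, a 224-fold ratio of means and a log2 change of 7.80 ± 1.08 (adjusted p = 0.000147, edgeR). The receptor Tomm22, which also organises the TOM complex, rose from 22.7, 18.1 and 12.1 to 447, 363 and 277 CPM (log2 change 4.36 ± 0.796, adjusted p = 0.000718, edgeR). No 1-cell library of these 3 genes came near a 2-cell library.

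The small subunit Tomm7 rose from 6.30, 10.4 and 9.87 to 125.9, 140.7 and 120.0 CPM (log2 change 3.86 ± 0.632, adjusted p = 0.000363, edgeR). Tomm6 rose by 3.91 ± 0.477 on the log2 scale (adjusted p = 9.1e-05) and its antisense neighbour Tomm6os by 3.94 ± 0.471 (adjusted p = 8.67e-05, edgeR), and reads over their shared exon bases cannot be assigned to either. The pore protein Tomm40 was called higher, at 25.6, 18.5 and 15.9 CPM after 4.18, 1.16 and 1.49 CPM. Tomm40l was called at 1.40, 0.969 and 0.0235 CPM, at least 13.2-fold above the same floor. The remaining TOM members, Tomm70a and the paralog Tomm20l, did not pass the test.

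**Figure D4:**
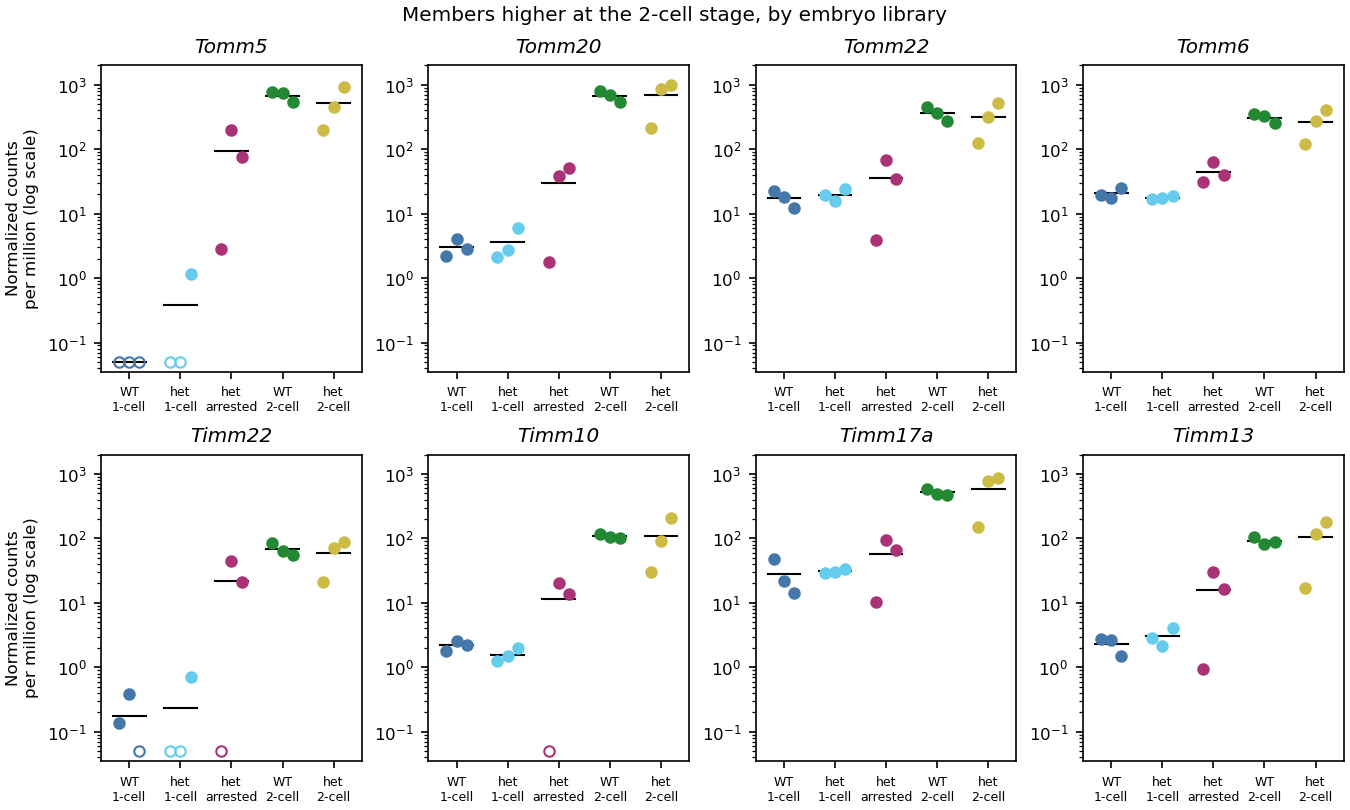
Normalised CPM (log axis) of 8 members higher at the 2-cell stage in each embryo library; points are libraries, bars are group means, and open circles stand for 0 counts drawn at the lower edge. Every 2-cell library of these genes lies above every 1-cell library, and arrested libraries 2 and 3 lie above every 1-cell library.

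In the inner membrane and intermembrane space the same step was as steep for some members. Timm22, the carrier channel, rose from 0.137, 0.385 and 0 CPM to 84.4, 64.03 and 56.0 CPM, a 392-fold ratio of means. Timm10 and Timm13, small TIM chaperones, rose 49.3-fold and 39.7-fold, to 108 ± 9.43 and 91.6 ± 12.5 CPM (SD, n = 3). Timm8a1, which pairs with Timm13 to carry precursors, rose from 22.3, 15.7 and 9.71 to 306, 266 and 239.5 CPM (log2 change 4.09 ± 0.732, adjusted p = 0.000643, edgeR). The TIM23 channel partners rose as a pair: Timm17b by 4.41 ± 0.698 on the log2 scale (adjusted p = 0.000294, edgeR), and Timm17a from 48.2, 21.8 and 14.1 to 593, 489 and 477 CPM.

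The channel protein Timm23 itself did not pass the test, at 704, 778 and 767 CPM in 1-cell and 685, 656 and 705 CPM in 2-cell embryos. Timm8b, at 344, 323 and 330 against 192, 200 and 267 CPM, did not pass either, although its stages did not overlap. The spread in this fit came from all 15 embryo libraries, among them het 1-cell libraries 1 and 3. In these Timm23 was at 143 and 103 CPM and Timm8b at 60.1 and 46.3 CPM. The missing calls therefore do not show that the levels were unchanged. Of the motor, the exchange factors Grpel1 and Grpel2 rose, 4.23-fold and 5.32-fold, and Pam16 and the docking protein Timm44 did not pass.

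The 4 genes that fell were Timm21, Hspd1, Dnajc19 and Hspa9, which lie outside the 8 smallest p and were named after their values were seen. Timm21 went from 174.6, 180.5 and 155.3 to 41.1, 42.2 and 67.7 CPM (adjusted p = 0.0241). Hspd1 went from 54.9, 82.0 and 58.3 to 32.9, 21.8 and 34.9 CPM (adjusted p = 0.0268). The motor J-protein Dnajc19 went from 66.3, 77.6 and 54.7 to 25.8, 25.7 and 30.4 CPM (adjusted p = 0.0312), and Hspa9 from 90.2, 126.7 and 127.0 to 77.2, 63.5 and 44.3 CPM (adjusted p = 0.0335, edgeR). In each of these 4 the stages did not overlap. With RLE scaling Dnajc19 and Hspa9 had adjusted p of 0.0626 and 0.0961. Without the filter on low counts Hspd1, Dnajc19 and Hspa9 had adjusted p of 0.113, 0.0897 and 0.195, and Timm21 0.0301 (edgeR). DESeq2, a block of the replicate numbers in the labels and a fit of the compared groups alone each called all 4 genes. Leaving out 1 library at a time ended the call of Dnajc19 in 6 of 6 fits and that of each other gene in 4 of 6, and without WT 1-cell library 2 the count was 17 higher and 0 lower.

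**Figure D5:**
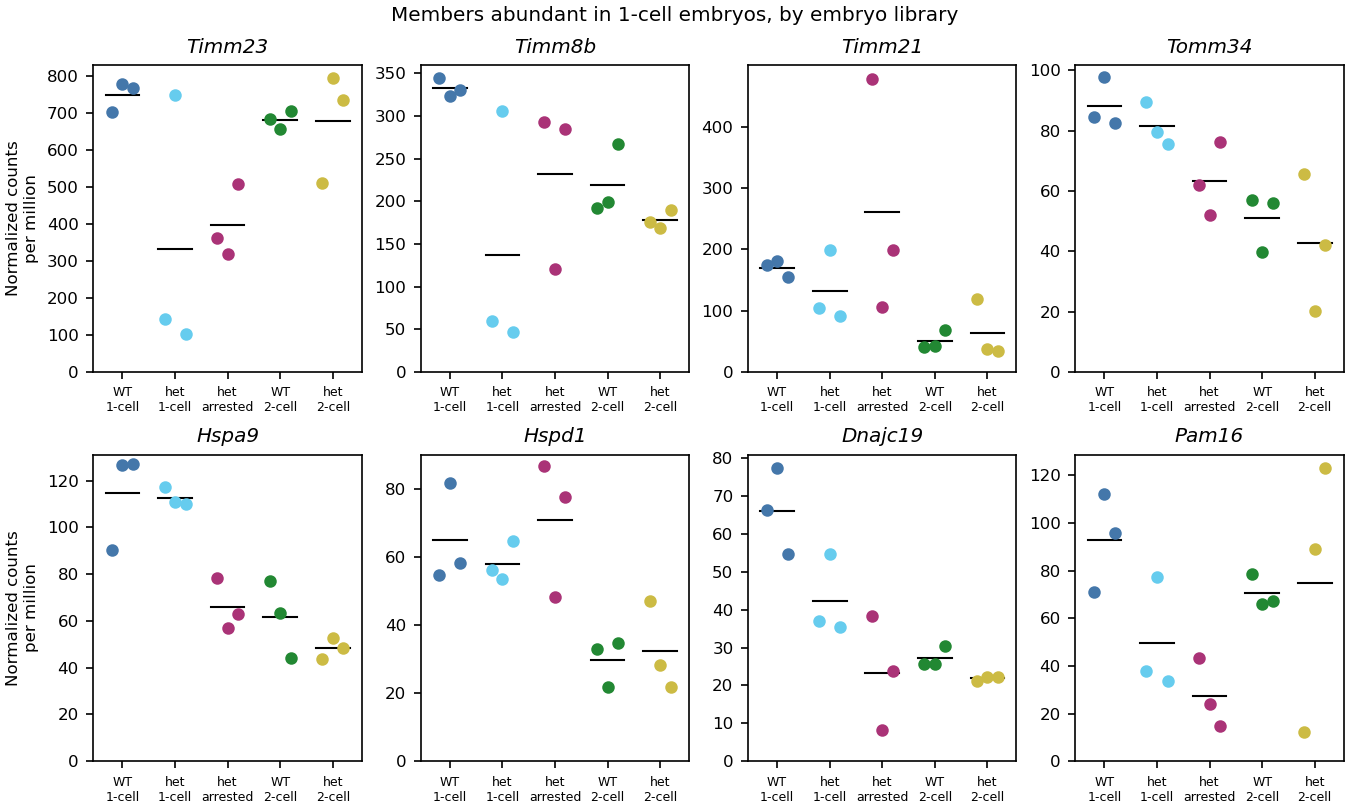
Normalised CPM (linear axis) of 8 members abundant in 1-cell embryos in each embryo library; points are libraries and bars are group means. Timm21, Hspa9, Hspd1 and Dnajc19 are lower in all WT 2-cell than in all WT 1-cell libraries, and the het 1-cell libraries of Timm23 and Timm8b split into 1 high and 2 low values.

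The start-site regions of the genes that rose were read from RefSeq (GRCm38.p6), where 31 of the 36 members matched 34 promoters of 300 bases, 250 before to 50 after the start. Both strands were searched for the exact letters of 4 motifs, which were settled after matches had been counted. Variant spellings of a motif were not searched, so a promoter without a match may still hold a variant. The ETS core CCGGAAG, overlapping matches included, was in 15 of 34 member promoters (44.1%, 14 genes) and in 8.86% of all 32851 promoters. It was found in 8 of the 19 matched genes that rose at the WT 2-cell stage, 1 of the 2 that fell and 5 of the 10 not called. The NRF1 core CGCATGCG was in 1 member promoter (2.94%, Timm13) and 1.87% of all, TATAAA in 3 (8.82%; Dnajc19, Timm13 and Tomm5) and 13.6% of all, and TGACGTCA in 0 (0.0%) and 1.79% of all. Such matches describe letters and are not evidence of binding. The 100 bases before the RefSeq start, which overlap no exon of the annotation, are shown for 3 genes that rose and have no ETS core in their promoter, Tomm20 (chr8:126945922-126946021, minus strand), Timm22 (chr11:76406825-76406924, plus strand) and Timm13 (chr10:80900970-80901069, minus strand). They are set beside 3 windows that hold the core, in capitals on either strand: Timm8a2 (chr14:122034574-122034673, plus strand) and Timmdc1 (chr16:38522664-38522763, minus strand), which rose, and Tomm34 (chr2:164071170-164071269, minus strand), which was not called.
Tomm20: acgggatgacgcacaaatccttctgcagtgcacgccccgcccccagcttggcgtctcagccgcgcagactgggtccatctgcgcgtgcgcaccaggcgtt
Timm22: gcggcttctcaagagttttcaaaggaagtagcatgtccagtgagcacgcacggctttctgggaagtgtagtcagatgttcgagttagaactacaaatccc
Timm13: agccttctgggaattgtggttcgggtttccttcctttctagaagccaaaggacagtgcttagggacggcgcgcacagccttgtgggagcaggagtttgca
Timm8a2: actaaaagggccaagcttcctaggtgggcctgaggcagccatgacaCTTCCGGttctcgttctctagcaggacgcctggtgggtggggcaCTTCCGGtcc
Timmdc1: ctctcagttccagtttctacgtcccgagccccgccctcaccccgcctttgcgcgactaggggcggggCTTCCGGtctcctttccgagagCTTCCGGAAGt
Tomm34: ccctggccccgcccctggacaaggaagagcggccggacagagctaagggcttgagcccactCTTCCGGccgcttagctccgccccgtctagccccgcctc

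In het embryos the rise had a wider spread between libraries. From the 1-cell to the 2-cell stage 18 of 36 genes rose and 1 fell, against 22.8% and 13.9% of all genes, with a median log2 change of 1.79 against 0.36 (1.98 against 0.53 with RLE). Tomm5 went from 0, 0 and 1.14 CPM to 202, 449 and 924 CPM (log2 change 10.27 ± 1.70, adjusted p = 0.0009, edgeR). Tomm20 went from 2.12, 2.69 and 5.90 to 210, 868 and 995 CPM, with a log2 change of 7.59 ± 1.07 (adjusted p = 0.000285, edgeR). In both genes library 1 was the lowest of the het 2-cell libraries, and it lay below every WT 2-cell library.

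The other members with the smallest p were Tomm6 (3.92 ± 0.477, adjusted p = 0.000183), Tomm6os (3.92 ± 0.471, adjusted p = 0.000183), Tomm7 (4.08 ± 0.64, adjusted p = 0.000498) and Timm17b (3.65 ± 0.674, adjusted p = 0.00123, edgeR). Timm17a rose by 4.27 ± 0.801 (adjusted p = 0.00135) and Timm13 by 5.10 ± 0.995 (adjusted p = 0.0017, edgeR). Hspa9 was the gene that fell, from 117.2, 110.7 and 109.8 to 43.7, 52.7 and 48.5 CPM (adjusted p = 0.00959, edgeR). Without both het 1-cell libraries that stood apart, 5 members were called, all higher: Tomm5, Tomm6, Tomm6os, Tomm7 and Tomm20. The remaining lone 1-cell library is then assumed to vary like the other groups.

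At matched stages no import gene was called between het and WT embryos. At the 1-cell stage 0 of 36 passed, against 0.0% of all genes, with 3 at an unadjusted p under 0.05 and 0 by DESeq2. The SAM subunit Mtx1 had the smallest p, at 4.25, 3.40 and 3.65 CPM in WT and 6.45, 11.3 and 7.61 CPM in het (log2 change 1.17 ± 0.493, adjusted p = 1.0, edgeR). Tomm5 had the next smallest, on 18 counts in 1 het library and none elsewhere, at least 6.3-fold above the floor of 3 counts (adjusted p = 1.0). Timm23 was at 143, 749 and 103 CPM in het against 704 to 778 CPM in WT, and Timm8b at 60.1, 306 and 46.3 against 323 to 344 CPM. The low values are those of the 2 libraries that stood apart, whose oocyte markers were low as well. Without the remaining library 2, Timm23 was called with a log2 change of -2.62 (adjusted p = 0.00415) and Timm8b with -2.65 (adjusted p = 0.00762, edgeR). Without libraries 1 and 3 no member was called.

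At the 2-cell stage 0 of 36 passed, against 0.00423% of all genes, with 0 at an unadjusted p under 0.05 and 0 by DESeq2. The smallest p values were those of Timm8a2 (log2 change -0.64 ± 0.392, adjusted p = 1.0) and Hspa9 (-0.35 ± 0.32, adjusted p = 1.0, edgeR). Timm8a2 stood at 56.5, 39.4 and 34.6 CPM in WT and 31.4, 26.0 and 26.3 CPM in het, without overlap. The difference of the stage effects between genotypes was called for 0 of 36 genes, against 0.00423% of all genes, with 0 at an unadjusted p under 0.05 and 0 by DESeq2. The smallest p values there belonged to Tomm5 and Tomm40l, whose WT 1-cell libraries are empty, so that the fitted difference has no usable size (adjusted p = 1.0 for both, edgeR). Without het 1-cell library 2, 1 member, Timm23, was called there, with a log2 difference of 2.61 (adjusted p = 0.0222, edgeR). That fit keeps only the het 1-cell libraries that stood apart. At the 1-cell stage Eif4enif1 itself was not called, at a log2 change of -1.12 and without overlap between the genotypes. With 3 libraries a group and the spread seen in het 1-cell and het 2-cell libraries, differences of that size may not have been detectable.

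In arrested het embryos Tomm5, Timm22, Tomm20, Grpel2 and Tomm6 were higher than in fresh het 1-cell embryos. Against fresh het 1-cell embryos 5 of 36 genes rose and 0 fell, against 9.97% and 3.91% of all genes. Arrest and the 24 h of culture cannot be told apart in this comparison. The median log2 change was 0.80, against 0.28 over all genes. Tomm5 had 2.83, 199.8 and 74.4 CPM in arrested embryos against 0, 0 and 1.14 CPM (log2 change 7.77 ± 1.55, adjusted p = 0.00774, edgeR). Timm22 had 0, 44.2 and 20.9 CPM against 0, 0 and 0.697 CPM (6.35 ± 1.61, adjusted p = 0.0188, edgeR). Tomm20 had 1.79, 37.7 and 51.5 CPM against 2.12 to 5.90 CPM (3.08 ± 0.875, adjusted p = 0.0311, edgeR). In each of these, arrested library 1 was the lowest, and for Timm22 and Tomm20 it lay within or below the fresh range.

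Grpel2 rose by 1.95 ± 0.52 on the log2 scale (adjusted p = 0.0235), from 2.78 to 4.77 CPM in fresh to 9.89, 23.4 and 9.43 CPM in arrested embryos. Tomm6 rose by 1.35 ± 0.433 (adjusted p = 0.0497, edgeR). Both comparisons had no overlap between the groups. Not every member of the 2-cell rise was higher: Mtx1, called higher at the het 2-cell stage, had 2.07, 4.58 and 3.17 CPM in arrested against 6.45, 11.3 and 7.61 CPM in fresh embryos. Without arrested library 1 the count was 10 higher and 1 lower, without arrested library 2 it was 2, without het 1-cell library 1, 2 or 3 it was 1, 3 and 2, and without both het 1-cell libraries that stood apart it was 0.

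Against het 2-cell embryos, which had the same 24 h of culture, 8 of 36 genes were lower in arrested embryos and 1 was higher, against 4.55% and 3.85% of all genes. The median log2 change was -1.46, against -0.01 over all genes (-1.58 against -0.14 with RLE). The lower genes were 4 TOM subunits, the 2 TIM23 channel partners, Mtx1 and Tomm6os. The calls of the TOM subunit Tomm6 and of Tomm6os are not independent, since the genes share exon bases. Tomm20 was at 1.79, 37.7 and 51.5 CPM against 210, 868 and 995 CPM, a log2 change of -4.51 ± 0.923 (adjusted p = 0.0147, edgeR). Tomm22 was at 3.86, 67.4 and 34.5 CPM against 126.5, 315 and 517 CPM (-3.18 ± 0.753, adjusted p = 0.0221, edgeR). Tomm7 was at 4.24, 11.4 and 15.5 CPM against 24.0, 151.8 and 149.4 CPM (-3.38 ± 0.618, adjusted p = 0.0115, edgeR). In each of the 8 lower genes every arrested library lay below every het 2-cell library.

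Timm17a fell by 3.38 ± 0.768 on the log2 scale (adjusted p = 0.0192) and Timm17b by 2.28 ± 0.634 (adjusted p = 0.0396, edgeR). Mtx1, a metaxin of the SAM complex, fell by 2.70 ± 0.516 (adjusted p = 0.0124), Tomm6 by 2.57 ± 0.449 (adjusted p = 0.0107) and Tomm6os by 2.62 ± 0.444 (adjusted p = 0.0102, edgeR). The gene that was higher was Timm21, at 478, 107 and 199 CPM in arrested and 119, 37.6 and 34.4 CPM in 2-cell embryos (adjusted p = 0.0463, edgeR), with overlap between the groups. Without het 2-cell library 2 or 3 no member was called, without het 2-cell library 1 the count was 14 lower and 2 higher, and without arrested library 2 it was 13 lower and 1 higher.

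Counted by position alone, all arrested libraries lay below all het 2-cell libraries in 17 of 36 members (47.2%) and above them in 2 (5.56%), while over all genes tested the shares were 15.6% and 9.8%. Among the 18 members that rose at the het 2-cell stage the share below was 77.8%, and among all 5398 genes that rose it was 41.9%; these counts reuse the 2-cell libraries and carry no test. Summed markers of the 2-cell stage, 8 genes found of 9, were at 176, 3809 and 2501 CPM in arrested libraries 1, 2 and 3, against 1250 to 4008 CPM in het 2-cell and 53.1 to 70.5 CPM in 1-cell libraries. The markers did not move alike. Zscan4f was at 1445 and 909 CPM in arrested libraries 2 and 3, against 172 to 1111 CPM in het 2-cell libraries. Eif1a was at 57.6 and 69.3 CPM there, below the 115 to 158 CPM of every het 2-cell library, and Tcstv3 was at 20.5 and 82.3 CPM against 60.2 to 148 CPM. The part of the developmental state of the arrested libraries in the import values was not tested.

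Against WT 1-cell embryos 8 of 36 genes were higher in arrested embryos and 1 was lower, against 14.1% and 5.44% of all genes, with a median of 0.69 against 0.46. This comparison shares the arrested libraries with those above. Genotype, arrest and culture cannot be told apart in it. Tomm5 was at least 1529-fold higher (adjusted p = 0.00239) and Tomm40l at least 56.3-fold (adjusted p = 0.0411, edgeR), each against a floor of 3 counts over the WT group, and Tomm40l was at 0, 8.80 and 1.39 CPM. Timm22 rose by 6.97 ± 1.67 (adjusted p = 0.0112), Tomm20 by 3.34 ± 0.884 (adjusted p = 0.0176) and Grpel2 by 1.93 ± 0.519 (adjusted p = 0.019, edgeR). Timm50 rose by 2.45 ± 0.79 (adjusted p = 0.0407) and Timm17b by 1.99 ± 0.633 (adjusted p = 0.0392, edgeR). Dnajc19 fell by 1.5 ± 0.456 (adjusted p = 0.0323, edgeR), to 38.2, 8.13 and 23.9 CPM, the direction it also took at the WT 2-cell stage. Without arrested library 1 the count was 15 higher and 3 lower, without arrested library 2 or 3 it was 3 and 5, and without WT 1-cell library 1, 2 or 3 it was 3, 2 and 1, all higher.

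A list of 35 other genes of import and early protein maturation, such as processing peptidases, the disulfide relay and matrix proteases, gave a comparison outside the 36. In GV oocytes 1 of 35 was higher in the het translatome, the outer-membrane protein Mtch1 (log2 change 1.54 ± 0.386, adjusted p = 0.0412, edgeR), against 2.61% of all genes, and 0 were called in the transcriptome. Between fractions 4 were higher and 3 lower in the WT translatome, against 8.95% and 5.64% of all genes, with a median log2 change of 0.14 against -0.04. In het oocytes 6 were higher and 0 lower, against 6.19% and 1.91% of all genes, with a median of 0.17 against 0.04. The matrix protease subunit Afg3l2 rose in both genotypes, by 1.43 ± 0.265 in WT (adjusted p = 0.00537) and 1.30 ± 0.269 in het (adjusted p = 0.0118), as did the processing peptidase subunit Pmpca, by 1.82 ± 0.391 (adjusted p = 0.0106) and 1.80 ± 0.407 (adjusted p = 0.0179, edgeR). The sulfhydryl oxidase Gfer fell by 1.16 ± 0.24 in WT (adjusted p = 0.00895, edgeR).

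From the 1-cell to the 2-cell stage 11 of the 35 rose and 6 fell in WT embryos, against 28.5% and 17.9% of all genes, and 11 rose and 5 fell in het embryos, against 22.8% and 13.9%. Median log2 changes were 0.41 and 0.39, against 0.59 and 0.36 over all genes, so the counts and medians of this list lay near those of all genes. In WT embryos the disulfide relay oxidoreductase Chchd4 rose by 8.01 ± 1.40 (adjusted p = 0.000543) and the matrix protease Clpp by 7.48 ± 1.28 (adjusted p = 0.00049, edgeR), from means of 0.128 and 0.748 CPM. The protease Oma1 fell by 5.26 ± 1.06 in het embryos (adjusted p = 0.00205, edgeR) and was also lower in arrested than in fresh het 1-cell embryos, by 4.30 ± 1.01 (adjusted p = 0.0134, edgeR). Against het 2-cell embryos 5 of the 35 were lower in arrested embryos and 0 higher, against 4.55% and 3.85% of all genes, with a median of -0.18 against -0.01. Among these the matrix chaperone Trap1 fell by 2.01 ± 0.465 (adjusted p = 0.0203) and Clpx, the unfoldase partner of Clpp, by 1.87 ± 0.527 (adjusted p = 0.0415, edgeR).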

How the data were processed

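The authors deposited raw read counts per gene in 2 tables, 1 for 8 GV libraries and 1 for 15 embryo libraries. Per the submitters' processing notes, the build was mm10, with HISAT2 2.1.0, featureCounts 1.6.5 and Trim Galore 0.6.4 named as tools. Not given in the sources used here: the annotation release, strand setting, treatment of multiply mapped reads and removal of duplicates. No molecular identifiers are named in the labels, so floors cover counting error only. Gene structure came from a reference annotation on mm10.

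Counts were tested with edgeR 4.0.16 (R 4.3.3; filterByExpr, TMM scaling, quasi-likelihood F test), with all libraries of a table in 1 fit, group as the only term, and Benjamini-Hochberg adjustment over all genes tested. A gene was called at an adjusted p under 0.05. SE was derived from the F statistic. The scripts were tested on simulated data. Levels are TMM-normalised CPM. Where a group had no count, the fold is a lower bound at 3 counts over the group.

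The members, gene lists and tests were chosen with earlier results of these data known. Statistics are given for called members, at most the 8 with the smallest p, or for the 2 with the smallest p where none was called. Of the other import genes, up to 4 called genes were named. Both fractions of a GV specimen carry 1 number in the sample descriptions, and deviations of such pairs from their group means correlated at 0.0492 in WT and 0.265 in het over 9075 genes. The specimen block entered as an alternative, beside RLE scaling, no filter, DESeq2 1.42.0, fits of the compared groups alone and leaving out libraries.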

Additional observations from a re-analysis of the deposited data

How the results depend on the processing

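No named value changed sign under any setting run, and the counts of called members moved as follows. Between genotypes in the GV translatome (2 called), a block of label numbers gave 1 and a fit of the compared groups alone gave 0. In the GV transcriptome (1 called), no low-count filter and DESeq2 each gave 2. For translatome against transcriptome in het oocytes (7 called), DESeq2 gave 11. With the specimen as replicate block the counts were 14 in WT, 8 in het and 0 for the difference of genotype effects, and the block ended none of the 17 named values of these comparisons. For 2-cell against 1-cell in het embryos (19 called), leaving out het 1-cell libraries 1 and 3 gave 5. For arrested against fresh 1-cell (5 called), DESeq2 gave 10, the block of label numbers 2, the compared groups alone 0, and leaving out het 1-cell libraries 1 and 3 gave 0. For arrested against 2-cell (9 called), DESeq2 gave 17 and the compared groups alone 0. For arrested against WT 1-cell (9 called), the block of label numbers gave 4 and the compared groups alone 1. The cause was not tested.

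With 1 library left out, counts ranged from 0 to 4 for het against WT in the translatome and 0 to 1 in the transcriptome, and stayed at 0 for the difference of the 2. They ranged from 3 to 8 between WT fractions, 0 to 7 between het fractions, 0 to 2 for het against WT at the 1-cell stage and 0 to 0 at the 2-cell stage. For 2-cell against 1-cell they ranged from 17 to 23 in WT and 14 to 24 in het embryos, and from 0 to 1 for the difference of the stage effects. They ranged from 1 to 11 for arrested against fresh 1-cell, 0 to 16 against 2-cell and 1 to 18 against WT 1-cell. Of 357 named values with 1 library left out, 256 stayed on their side of the threshold and 101 lost the call. Of 326 under the other settings, 289 stayed and 37 lost it. The values that stayed include those of comparisons without a called member, which had no call to lose, so the share lost among called values is higher.

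Label numbers are shared between embryo groups and between genotypes of GV oocytes without a stated common origin. Same-numbered deviations correlated at -0.346 and -0.45 between GV genotypes, and no value was read as a paired effect. The lowest depths were those of het transcriptome library 1 (3.62 M) and het 1-cell library 1 (5.6 M), which limit what can be detected for members of a few CPM.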
